A study of Glycine max with 4 samples.

Results

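Close unshared regions were ChIP-Seq peaks of GmWRI1 replicate 1 that replicate 2 did not call, but whose summit lay at most 10000 bp from the summit of a peak that both replicates called. They were chosen by the peak calls themselves. A replicate 1 region was shared if any replicate 2 region overlapped it by at least 1 bp and unshared otherwise, and only the outer parts of the 20 chromosomes were used, with a region's midpoint below 0.3 or above 0.7 of the chromosome length. Of the 7042 regions of replicate 1, 5985 lay in these outer parts. Of these outer regions 1663 were shared, 27.8%, and 4322 were unshared. The rule selected 563 of the unshared regions as close, and the other 3759 lay farther from any shared summit. The 2142 regions of replicate 2 entered only through the overlap, and both lists together held 9184 regions.

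WRINKLED1 (WRI1), an AP2-type regulator best known from Arabidopsis, turns on genes of late glycolysis and plastid fatty acid synthesis in oil-storing seeds and binds a DNA element called the AW box. GmWRI1 stands here for the soybean homologs GmWRI1-A (Glyma.08G227700) and GmWRI1-B. A ChIP-Seq peak is a stretch where the antibody pulled down more fragments than the input, total chromatin without pull-down, would give, and the summit is its highest point. Neighboring summits of a list are separate calls of the peak caller.

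The series held 4 samples, 2 GmWRI1 ChIP samples and 2 input samples, as biological replicates 1 and 2. All were Williams 82 embryos of the cotyledon (cot) stage, from seeds sized 3.5 to 4.5 mm, crosslinked with formaldehyde, with no other genotype or treatment, and their chromatin was sonicated to 100 to 500 bp. A GmWRI1-A peptide served to raise the antibody, which per the study also recognizes GmWRI1-B, so peaks of these proteins cannot be told apart. The study states that its cot stage ChIP data missed the quality thresholds it applied, and how many embryos went into a sample is not given in the sources used here.

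The number of ChIP fragments at each summit was recovered from the deposited values, and the fewest at any called region were 14 for replicate 1 and 12 for replicate 2. Local background is the number of fragments that the input predicts at the summit, and its lowest value was 3.37 in the replicate 1 list, against 2.40 in that of replicate 2. This value rises with the depth and the fragment length of a library, which were not separated here. Binding below the detection limit of replicate 2 and no binding in replicate 2 cannot be told apart. Regions are not independent replicates, and every interval below is a 95% interval that covers counting error only. Since overlap and distance chose the regions, no test was made.

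Outer unshared regions lay near shared ones more often than the room around shared summits would give. The close ones made up 13.0% of the outer unshared regions (563 of 4322, Wilson interval 12.1 to 14.1%). Of the outer bases outside shared regions, 30.432 Mb of 567.265 Mb, or 5.36%, lay within 10000 bp of a shared summit. That share is the exact expectation for summits placed evenly over the outer bases, and it corresponded to 232 regions. Bases were counted whether or not reads could be placed there, and the effect of this on the share was not tested. The ratio of the observed to the expected share was 2.43 (2.25 to 2.62). When the bases were counted only in the neighborhood of each unshared summit, which takes account of chromosome stretches rich in both kinds of region, the ratio was lower. It was 1.66 with bases within 500 kb and 1.57 with bases within 100 kb. The neighborhood of a close unshared region always contains its shared neighbor, so these base shares are in part set by nearness itself.

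The share exceeded that of bases on each of the 20 chromosomes. The ratio was highest on chromosome 9, where 29 of 170 unshared regions (17.1%) were close beside 5.34% of bases. The lowest ratio was 1.36, on chromosome 16, where 8 of 145 unshared regions (5.52%) were close beside 4.05% of bases. Chromosome 2 held the most close unshared regions, 38 of 233 (16.3% beside 6.78% of bases).

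**Figure D1:**
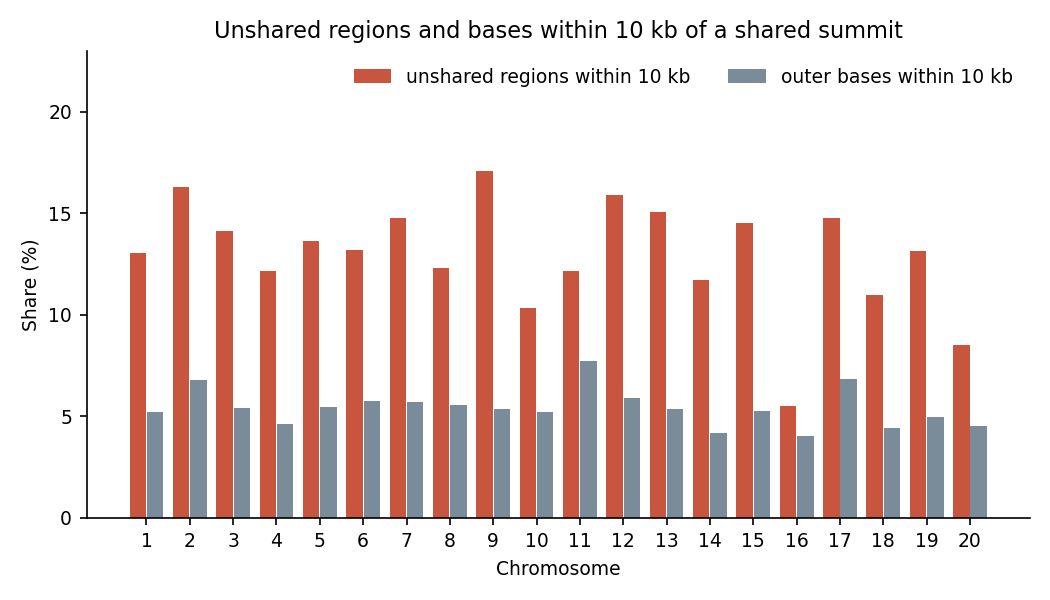
Share of unshared outer regions of replicate 1 (red) and of outer bases (gray) within 10 kb of a shared summit, in percent, for each of the 20 chromosomes. The red bar is taller than the gray one on every chromosome, by 3.19 times on chromosome 9 and 1.36 times on chromosome 16.

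Density fell with distance and was highest within 2 kb. Unshared summits numbered 38.5 per Mb (exact Poisson interval 31.0 to 47.4, 89 regions) at 0 to 1 kb from the nearest shared summit and 34.8 per Mb (28.7 to 42.0, 111 regions) at 1 to 2 kb. These intervals overlapped. At 2 to 5 kb the density was 16.0 per Mb (13.6 to 18.8, 153 regions), below both inner intervals, and at 5 to 10 kb it was 13.6 per Mb (11.9 to 15.6, 210 regions).

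Farther unshared regions were sparser, with 10.7 per Mb (9.55 to 11.97) at 10 to 20 kb, 10.1 per Mb (9.39 to 10.9) at 20 to 50 kb and 9.69 per Mb (9.07 to 10.3) at 50 to 100 kb. Beyond 100 kb the density was 5.30 per Mb (5.06 to 5.55). The interval of the 5 to 10 kb ring overlapped that of the 10 to 20 kb ring only narrowly. Set against the pooled density at 10 to 100 kb, 10.0 per Mb (9.56 to 10.5), the 200 regions within 2 kb were 3.64 times as dense (36.4 per Mb, 31.5 to 41.8). The 363 regions at 2 to 10 kb were 1.46 times as dense (14.6 per Mb, 13.1 to 16.1).

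**Figure D2:**
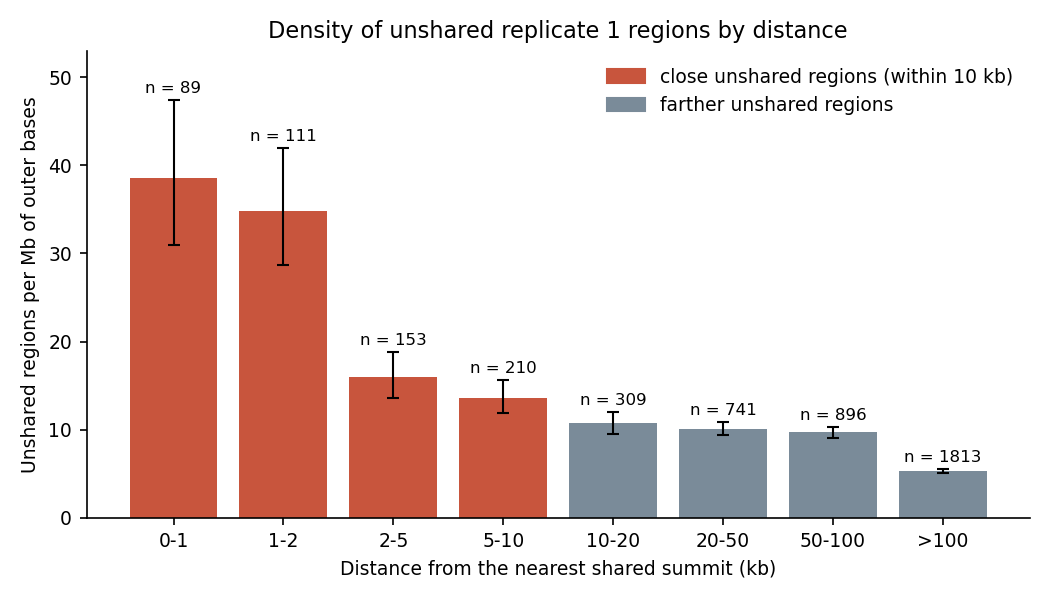
Unshared replicate 1 regions per Mb of outer bases in 8 rings of distance (kb) from the nearest shared summit, with exact Poisson 95% intervals as error bars and the number of regions above each bar. Close unshared regions (red) reach 38.5 per Mb in the innermost ring, and farther ones (gray) stay at or below 10.7 per Mb.

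In strength the close unshared regions were near the farther ones and below the shared ones. Fold enrichment, the ChIP fragments at the summit over the local background with 1 added to both, had a median of 4.45 in close unshared regions (interval of the median 4.35 to 4.51, quartiles 3.84 and 5.44), 4.56 in farther ones (4.49 to 4.59, quartiles 3.95 and 5.47) and 9.81 in shared ones (9.45 to 10.2, quartiles 6.72 and 16.8). The intervals of close and farther regions overlapped narrowly, and the ratio of their medians was 0.975. Fold enrichment spanned 1.49 to 10.6 in close unshared regions, 1.54 to 14.7 in farther ones and 1.41 to 71.6 in shared ones.

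The fragments behind these values were few. A summit had a median of 23 fragments in close unshared regions (quartiles 20 and 28, range 15 to 177) and 23 in farther ones (quartiles 20 and 28, range 14 to 214), against 60 in shared ones. Widths followed the same order, with a median of 265 bp (253 to 278) in close unshared regions, 270 bp (265 to 276) in farther ones and 433 bp (419 to 449) in shared ones. The median −log10 q, the peak caller's significance on a log scale, was 7.05 in close unshared regions, 7.48 in farther ones and 34.6 in shared ones.

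Strong regions were rare among both unshared classes. A fold enrichment of at least 8 was reached by 16 close unshared regions (2.84%, 1.76 to 4.57%) and by 140 farther ones (3.72%, 3.16 to 4.38%), against 1046 shared ones (62.9%). Only 4 close unshared regions and 44 farther ones were at or above the median of the shared regions. High local background, over 10 times the lowest of the list, marked 5 close unshared regions (0.888%) and 25 farther ones (0.665%), against 129 shared ones (7.76%).

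**Figure D3:**
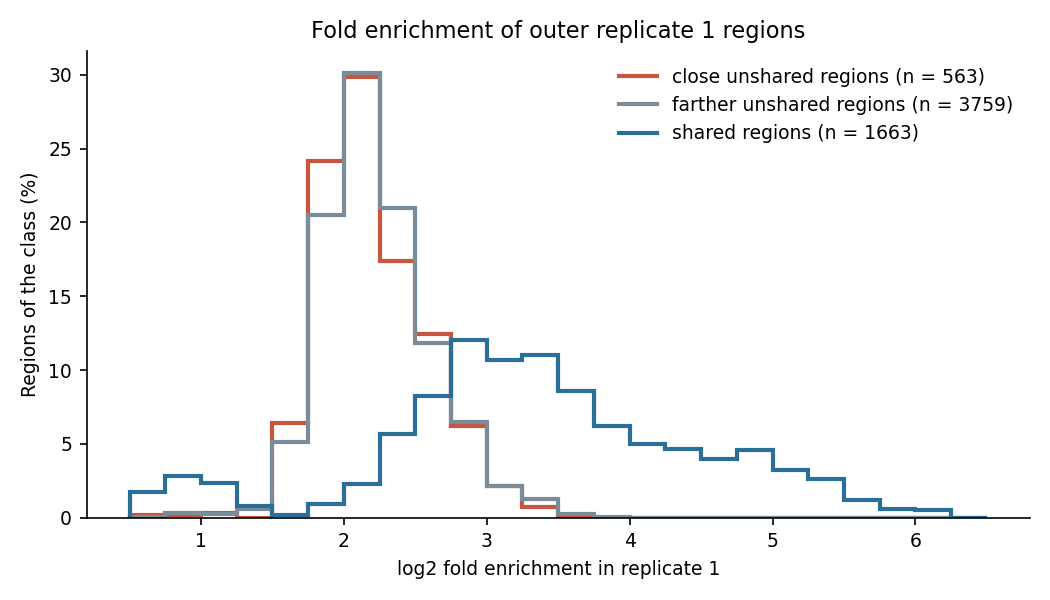
Distribution of log2 fold enrichment in replicate 1 for 563 close unshared, 3759 farther unshared and 1663 shared outer regions, as the percent of each class per bin of 0.25 on the log2 scale. The curves of the unshared classes lie on each other with medians of 4.45 and 4.56 before taking the log, while shared regions extend to 71.6.

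Strength changed little with distance inside the 10 kb limit. The median fold enrichment was 4.31 at 0 to 1 kb, 4.44 at 1 to 2 kb, 4.49 at 2 to 5 kb and 4.47 at 5 to 10 kb, and it lay between 4.55 and 4.57 in every ring beyond. Across the 563 close unshared regions, fold enrichment was not related to that of the nearest shared region (Spearman's rho -0.04, a description over regions of the same libraries).

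Distance and gap describe how tightly the pairs were packed. The summit distance had a median of 3316 bp (2976 to 3827), with quartiles of 1427.5 and 6680.5 bp and a range of 290 to 9987 bp. It was at most 2 kb for 200 regions (35.5%, 31.7 to 39.6%). Between the edges of a close unshared region and its shared neighbor the median gap was 2818 bp, and it was under 100 bp for 33 regions, under 500 bp for 132 and under 1000 bp for 177 (31.4%).

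Replicate 2 regions lay near by the rule, because every shared region overlaps one, and none overlapped a close unshared region. The gap to the nearest of them was under 100 bp for 5 close unshared regions, under 200 bp for 21 and under 500 bp for 77 (13.7%), and the smallest was 8 bp. For these 77 the class rests on short stretches of sequence between calls. The sides were even, with 288 of 563 (51.2%, 47.0 to 55.3%) on the higher-coordinate side of the shared summit.

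The regions nearest to the limit were these. The last regions inside were on chromosome 4 (4262777 to 4263096, 9948 bp away, fold enrichment 5.88, 32 fragments) and chromosome 5 (33116500 to 33116678, 9987 bp, 5.00, 22 fragments). The first outside were on chromosome 17 (82369 to 82599, 10057 bp, 3.37, 21 fragments) and chromosome 5 (34573345 to 34573809, 10067 bp, 5.79, 32 fragments). All coordinates are those of the soybean build Wm82.a2.v1, counted from 1.

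Some shared regions had several close unshared regions around them. Of the 1663 outer shared regions, 449 (27.0%, 24.9 to 29.2%) had at least 1 close unshared summit within 10000 bp. The 563 regions had 416 different nearest shared regions, of which 306 had 1, 83 had 2, 20 had 3, 5 had 4, 1 had 5 and 1 had 6. The 110 shared regions with several held 257 of the 563. Another unshared summit lay within 10000 bp of 266 close unshared regions (47.2%, 43.2 to 51.4%) and of 1344 farther ones (35.8%, 34.2 to 37.3%). Another shared summit lay that near to 163 shared regions (9.80%). This share cannot be set against those of unshared regions, because the outer parts held 1663 shared but 4322 unshared regions as possible neighbors. The share of bases near unshared summits was not computed.

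Wide shared regions had close unshared neighbors most often. In the widest quartile of shared regions, 696 to 4061 bp, 173 of 416 (41.6%, 36.9 to 46.4%) had 1 or more, against 90 of 416 (21.6%, 17.9 to 25.8%) in the narrowest quartile of 179 to 326 bp. The difference was concentrated within 2 kb of the summit, where the shares were 25.0% (21.1 to 29.4%) in the widest quartile and 3.85% (2.38 to 6.16%) in the narrowest. At 2 to 10 kb they were 23.8% (19.96 to 28.1%) and 18.5% (15.1 to 22.5%), with overlapping intervals.

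**Figure D4:**
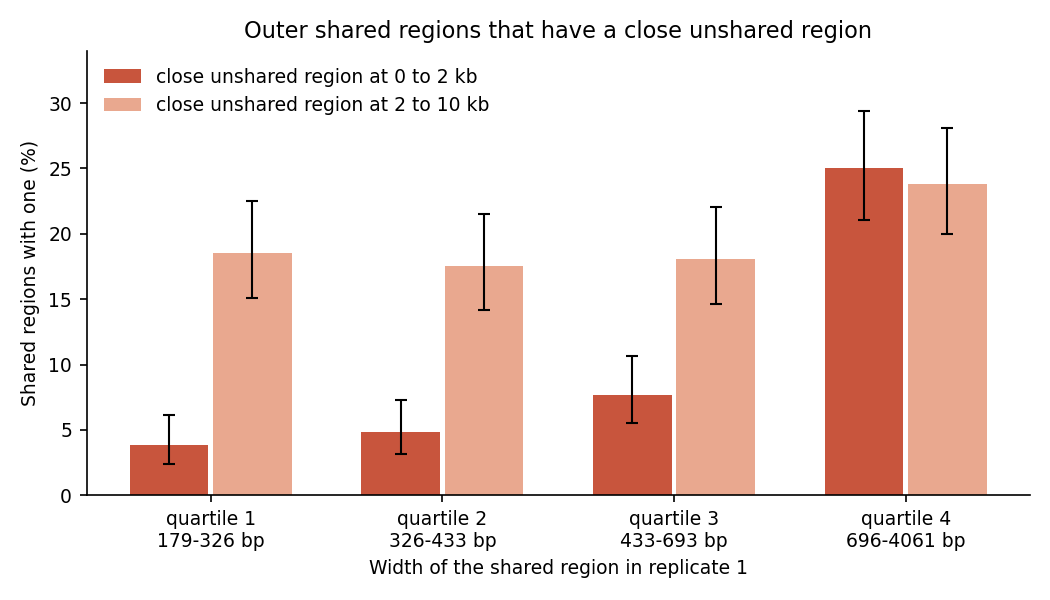
Percent of outer shared regions with a close unshared region whose summit lies 0 to 2 kb (dark) or 2 to 10 kb (light) from theirs, by quartile of the width of the shared region in replicate 1, with Wilson 95% intervals. The share within 2 kb is 25.0% in the widest quartile and 7.71% or less in the others, while the share at 2 to 10 kb lies between 17.5 and 23.8%.

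Shares differed less with the strength of the shared region. With 1 or more close unshared regions were 32.0% (27.7 to 36.6%) of shared regions in the highest quartile of fold enrichment and 25.2% (21.3 to 29.6%) in the lowest quartile, and these intervals overlapped. Within 2 kb the shares were 15.4% (12.2 to 19.2%) in the highest quartile and 6.97% (4.90 to 9.83%) in the lowest. Width and fold enrichment of shared regions were not separated from each other here.

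The close unshared region was nearly always the weaker of the pair, as unshared regions were weaker in general. Median fold enrichment was 4.45 in close unshared, 4.56 in farther unshared and 9.81 in shared regions. How often farther regions were weaker than their nearest shared region was not computed, so the share below is not particular to close pairs. Each close unshared region was compared with its nearest shared region. Its fold enrichment was below that of its nearest shared region in 508 of 563 cases (90.2%, 87.5 to 92.4%), and the shared region was a median of 2.42 times as enriched (quartiles 1.57 and 4.81). Of the 55 that were at least as strong, 17 stood beside a shared region with high background, as did only 18 of all 563. The remaining 38 had a median fold enrichment of 6.40, against 5.45 in replicate 1 and 5.02 in replicate 2 for their shared neighbors. Their order in replicate 1 was fixed by the way they were picked.

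Regions were binned by fold enrichment. In every bin from 3.5 up, the share that replicate 2 overlapped was lower near another shared summit than elsewhere. It was 0.901% near and 2.16% elsewhere at 3.5 to 4, and 0% and 2.16% at 4 to 4.5. At 4.5 to 5 it was 2.53% and 5.78%, and the intervals overlapped in these bins. Strength still varied within a bin, and the last bin had no upper limit. The rule used overlap and nearness, so these shares are a description. Without high-background regions, at a fold enrichment of 5 to 6, replicate 2 overlapped 13 of 105 regions near a shared summit (12.4%, 7.38 to 20.04%) and 104 of 798 others (13.0%, 10.9 to 15.5%). At 6 to 8 the counts were 26 of 102 (25.5%, 18.0 to 34.7%) near and 269 of 765 (35.2%, 31.9 to 38.6%) elsewhere. At 8 or more they were 83 of 99 (83.8%, 75.3 to 89.8%) near and 963 of 1103 (87.3%, 85.2 to 89.1%) elsewhere, and the intervals overlapped in each of these bins. Below a fold enrichment of 3.5, where high-background regions collect, the shares with those regions kept were 38 of 104 (36.5%, 27.9 to 46.1%) near and 95 of 473 (20.1%, 16.7 to 23.9%) elsewhere. Without them they were 1 of 62 near and 3 of 356 elsewhere.

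The strongest close unshared regions were stronger than many shared ones and yet had no overlapping call in replicate 2. The highest fold enrichment, 10.6 with 47 fragments (exact Poisson interval 34.5 to 62.5), was on chromosome 11 (2351456 to 2351936, 481 bp wide). Its summit was 1572 bp from a shared summit of lower enrichment, 6.60 with 28 fragments in replicate 1 and 4.12 with 14 fragments in replicate 2, and the study's table of bound regions pairs both with Glyma.11G032200, a gene of the aspartyl protease family. Outside the fatty acid and triacylglycerol genes below, gene names for regions come from that table, which covers the cot stage and is held here only in part. It pairs a bound region with a gene. A close unshared region with such a name therefore falls in a stretch that the study itself lists as bound at this stage. Being unshared here means only that no region of the replicate 2 list overlapped it.

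A second region on chromosome 11 (6574292 to 6574958) had a fold enrichment of 10.3 with 57 fragments (43.2 to 73.9). It lay 8390 bp from a shared region of 23.7 in replicate 1 and 18.3 in replicate 2 at Glyma.11G087400, annotated as a protein of the chloroplast inner membrane. On chromosome 8 (11041539 to 11042270), a region at Glyma.08G145300, an integrase-type DNA-binding protein, had 10.2 with 54 fragments (40.6 to 70.5), beside a shared region 3340 bp away with 10.1 in replicate 1 and 3.34 in replicate 2. These regions and the next one were the 4 close unshared regions at or above the shared median.

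The next, on chromosome 10 (42016455 to 42016952), had 9.95 with 50 fragments (37.1 to 65.9), 9674 bp from a weaker shared region of 6.14 in replicate 1 and 5.32 in replicate 2. The region at Glyma.02G262400 (chromosome 2, 44834929 to 44835546), of the LOB domain family of plant transcription factors, had 9.48 with 46 fragments and lay 695 bp from a shared summit of 12.8. Its edge was 130 bp from the shared region and 179 bp from the replicate 2 call. On chromosome 16 (8066945 to 8067347), a region at Glyma.16G078200, a senescence and dehydration associated gene, had 9.14 with 42 fragments, 608 bp from a shared summit of 26.6 in replicate 1 and 8.86 in replicate 2.

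The last of the 8 strongest were on chromosomes 7 and 15. The region on chromosome 7 (42657423 to 42658184) had 9.17 with 42 fragments, 7156 bp from a shared region of 8.30 at Glyma.07G248100, of the heavy metal transport and detoxification family. The region on chromosome 15 (2909129 to 2909553) had 9.11 with 40 fragments at Glyma.15G036900, 4713 bp from a shared region of 10.4 at the neighboring Glyma.15G037000, and both genes encode GRAS family transcription factors. Of these 8, 4 exceeded their shared neighbor in replicate 1, those at Glyma.11G032200 and Glyma.08G145300 and those on chromosomes 7 and 10.

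In the 4 closest pairs the unshared region had a fold enrichment of 2.91 to 4.57, beside a median of 4.45 over all close unshared regions. On chromosome 6 (44161259 to 44161445), a region of 4.42 with 22 fragments (13.8 to 33.3) lay 290 bp from a shared summit at Glyma.06G257700, an S-locus lectin protein kinase gene. On chromosome 10 (48807860 to 48808068), a region of 3.95 with 23 fragments lay 302 bp from a shared summit of 9.07 in replicate 1 and 5.48 in replicate 2, at the cupredoxin gene Glyma.10G263800. On chromosome 3 (40673677 to 40674125), a region of 4.57 with 22 fragments lay 329 bp from a shared summit of 5.47 at Glyma.03G197300, which encodes a P-loop nucleoside triphosphate hydrolase.

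The last of these 4, on chromosome 12 (6312775 to 6313009), had 2.91 with 22 fragments and lay 375 bp from a shared summit of 3.66 in replicate 1 and 4.92 in replicate 2, at the exostosin family gene Glyma.12G080300. The edges of these 4 regions were 64 to 99 bp from the shared region. On chromosome 12 the replicate 2 call came to within 56 bp.

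The 2 largest groups, and the 2 with the strongest shared region among the 5 groups of 4, differed in layout. On chromosome 6, the shared region at Glyma.06G257700 (44161545 to 44162241, 697 bp wide) had a fold enrichment of 5.17 with 28 fragments in replicate 1 and 5.00 with 16 fragments in replicate 2, and 6 close unshared regions stood within 2853 bp of its summit. At 290 and 709 bp on its lower-coordinate side they had 4.42 and 6.39, and at 655, 1522, 2078 and 2853 bp on its higher-coordinate side 3.03, 5.55, 3.66 and 4.35. These 6 rested on 15 to 27 fragments each, and 2 of them were stronger than the shared region.

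On chromosome 3, the shared region at Glyma.03G165300 (38013602 to 38014108, fold enrichment 12.3 in replicate 1 and 7.08 in replicate 2), a gene of unknown function, had 5 close unshared regions, all on its higher-coordinate side. One stood at 611 bp with 4.75, and the others at 5881, 6686, 7501 and 9617 bp had 3.43, 5.55, 6.48 and 6.60. The outer pair were 970 and 1501 bp wide, against 507 bp for the shared region. On chromosome 11, the shared region at Glyma.11G111700, GATA transcription factor 7, (8518620 to 8519187, 22.9 in replicate 1 and 13.3 in replicate 2) had 4 on 1 side, at 4085 to 8435 bp with 4.10 to 5.50.

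On chromosome 7, the shared region at Glyma.07G253100, encoding a histidine-containing phosphotransmitter of the cytokinin signaling pathway, (43036446 to 43037134, 13.6 in replicate 1 and 6.18 in replicate 2) had 4 close unshared regions on both sides within 2457 bp. The strongest of them, at 1595 bp, had 7.26 and was 828 bp wide, and the others had 3.48 to 4.41. In each of these 4 groups replicate 2 had 1 region, inside the shared region.

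**Figure D5:**
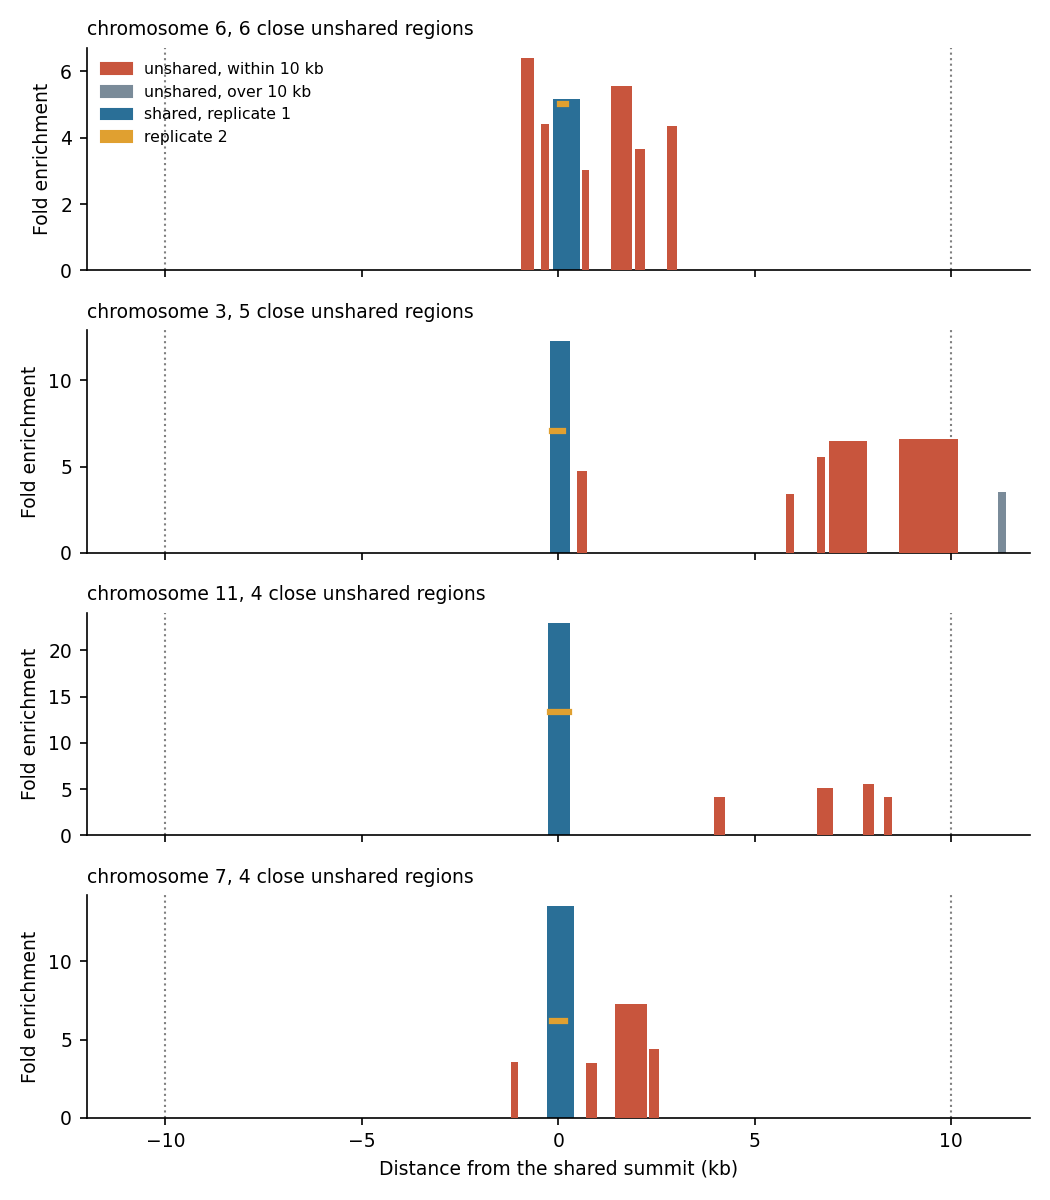
Fold enrichment (height) and extent (width) of regions around the summits of 4 shared regions with many close unshared regions, by distance from the shared summit in kb. Red bars are close unshared regions, blue bars shared regions of replicate 1, the gray bar a farther unshared region, orange lines replicate 2 regions, and dotted lines the limit of 10 kb. On chromosomes 6 and 7 the close unshared regions lie on both sides within 2853 bp, and on chromosomes 3 and 11 on 1 side up to 9617 bp.

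Fatty acid and triacylglycerol genes gave examples of the pathway that WRI1 is known for. The study lists 119 windows at 110 such genes, and it chose them by binding at a later embryo stage, so they are not independent evidence of binding. Of these windows 64 lay in a shared region, 4 in a close unshared region, 14 in a farther unshared region of the outer parts, 4 in an unshared region of a chromosome middle and 33 in none. A close unshared summit lay within 10000 bp of 17 windows at 16 genes, which involved 22 close unshared regions. Among the 56 outer windows in a shared region, 11 (19.6%) had one, beside 27.0% of all outer shared regions.

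At 4 genes the window itself lay in a close unshared region, and all 4 regions were below 4.45, the median of close unshared regions. The region at NADP-ME4 (Glyma.13G354900, chromosome 13, 44346608 to 44346799), an NADP-malic enzyme that yields pyruvate and NADPH, had a fold enrichment of 4.39 with 21 fragments (13.0 to 32.1), and its summit was 7 bp from the window's center. The region at a FAB2 homolog (Glyma.02G138100, chromosome 2, 14302966 to 14303219), a stearoyl-acyl carrier protein desaturase that makes oleate, had 4.12 with 24 fragments (15.4 to 35.7), 19 bp from the center. Their shared neighbors, 7000 and 4400 bp away, had 12.7 and 10.9 in replicate 1.

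The region at Glyma.13G344500 (chromosome 13, 43553979 to 43554162), a pfkB-like carbohydrate kinase, had 4.00 with 27 fragments, and 3 close unshared regions, itself included, had the same shared neighbor. The region at PGM2 (Glyma.08G044100, chromosome 8, 3493518 to 3493796), a phosphoglucomutase of central sugar metabolism, had 4.42 with 34 fragments (23.5 to 47.5), 3796 bp from a shared region of 9.65 in replicate 1 and 5.03 in replicate 2. At these 4 genes, then, replicate 1 had a call at the listed window and replicate 2 had none overlapping it.

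At other genes the window lay in a strong shared region and the close unshared region beside it. ACP4 (Glyma.15G098500), an acyl carrier protein that holds the growing fatty acid chain, had a shared region of 44.5 with 228 fragments in replicate 1 and 35.2 with 124 fragments in replicate 2 (chromosome 15, 7661135 to 7661749). Its 3 close unshared regions were all on the lower-coordinate side, at 941 bp with 4.66 and 23 fragments, at 1413 bp with 7.44 and 39 fragments (27.7 to 53.3), and at 6873 bp with 4.84 and 21 fragments. Each was far below the shared region in fold enrichment.

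Glyma.08G020500, a 6-phosphogluconate dehydrogenase family gene, had a shared region of 48.4 in replicate 1 and 34.1 in replicate 2, with a close unshared region of 3.74 and 20 fragments at 976 bp. Glyma.05G056400, an aldolase superfamily gene, had a shared region of 41.9 in replicate 1 and 33.2 in replicate 2, with one of 6.44 and 44 fragments (32.0 to 59.1) at 2392 bp. ACP3 (Glyma.19G240100), another acyl carrier protein, had a shared region of 22.7 in replicate 1 and 15.3 in replicate 2, with one of 4.21 and 19 fragments at 7647 bp. ACP3 and the genes in the next paragraph were named after their values were seen.

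Pyruvate dehydrogenase supplies acetyl-CoA to plastid fatty acid synthesis, and 3 genes of its subunits had a close unshared region nearby. For the E1 alpha gene (Glyma.16G018300) it had 5.18 with 26 fragments, 8461 bp from a shared region of 39.0, and for the E3 gene LPD1 (Glyma.07G241600) 3.69 with 18 fragments, 9330 bp from a shared region of 33.1. For the E1 beta gene (Glyma.05G141000) it had 3.69 with 17 fragments, 3182 bp from a shared region of 8.85. That was not the shared region of 37.2 in which the gene's window lay. Other listed genes of this enzyme complex had no close unshared region within 10000 bp, among them Glyma.07G049600, Glyma.10G215400, Glyma.14G092100, Glyma.17G032300 and Glyma.20G114500. The alpha subunit of the acetyl-CoA carboxylase carboxyltransferase takes part in the committed step of fatty acid synthesis. At its gene Glyma.18G195900 the close unshared region had 3.85 with 16 fragments, 5953 bp from a shared region of 36.3. The genes Glyma.18G195700 and Glyma.18G196000 of the same subunit had none within 10000 bp. At the PKP-ALPHA genes Glyma.20G136200 and Glyma.10G255100 of plastid pyruvate kinase, the values were 4.06 and 3.77, beside shared regions of 30.0 and 18.6. The PKP-ALPHA genes Glyma.10G178900 and Glyma.20G211200 had no close unshared region within 10000 bp. At malate dehydrogenase (Glyma.17G100600), 5.26 and 4.38 stood on either side of a shared region of 31.0. All of these close unshared regions rested on 16 to 26 fragments. A stronger one lay near KCR1 (Glyma.18G011500), a beta-ketoacyl reductase gene, with 7.09 and 40 fragments. It was above its nearest shared region, of 5.97, and the window of KCR1 lay in a farther unshared region.

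The same measure taken from the replicate 2 list, whose unshared regions the rule did not use, had little to count. Replicate 2 had 50 outer regions that no replicate 1 region overlapped, of 1812 outer regions, and 3 of the 50 (6.00%, Wilson interval 2.06 to 16.2%) lay within 10000 bp of a shared summit, beside 5.44% of bases. The ratio was 1.10, with an interval of the share that reaches from below the share of bases to above the 13.0% of replicate 1. None of the 50 lay within 2 kb, and a limit of 3 counts for a count of 0 allows a share of up to 6.00%. The 3 regions were on chromosomes 1 (4129758 to 4129926), 13 (40998860 to 40999004) and 14 (1547964 to 1548143), with fold enrichments of 4.94, 4.52 and 4.98 and 17, 16 and 20 fragments.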

How the data were processed

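GmWRI1 ChIP and input libraries of 2 biological replicates were grouped by their titles. Per the labels, Bowtie 0.12.7 and MACS3 were used, and the authors called narrow peaks at a q-value limit of 0.01 for each ChIP replicate. Filters on reads and duplicates are not given in the sources used here. The deposited lists give, for each region, start, end and summit in bp. The deposited fold enrichment is a ratio with 1 added to both parts, the −log10 p-value and the −log10 q-value, both deposited, come from the peak caller, and the deposited score was not used. Each list was assigned through the sample description that names it. The list names carry the replicate tags BR3 and BR4, while the titles number replicates 1 and 2, which are used here, and each input carries the description of the ChIP sample of its number.

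The highest end of either list stood for the chromosome length. Bases were counted outside shared regions. Fragments and background were recovered for 100% of regions as the whole number, up to 1500, whose Poisson upper tail matched the −log10 p within a relative error of 0.0001, tested on simulated summits. Read depths per library were not used, and without molecular identifiers fragments may not be independent molecules. Shares have Wilson intervals, counts exact Poisson intervals and medians exact binomial intervals.

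Regions named were the 8 with the highest fold enrichment, the 4 with the shortest distance, 2 inside and 2 outside the limit, the 4 shared regions with most close unshared regions (ties, here among 5 regions, broken by fold enrichment), and the 8 closest to a window of a fatty acid or triacylglycerol gene. The regions and lists were chosen with earlier results of these data known. Names and positions of genes came from the study's supplementary tables, and no sequence was used. Alternatives changed the q limit, overlap, distance, outer part, bases counted and measure of strength. Leaving out high-background regions, unshared regions within 2000 bp, or farther regions beyond 100 kb was chosen after seeing the data. Tools were Python 3.11.15, pandas 2.3.3, scipy 1.17.1, numpy 2.4.6 and matplotlib 3.10.9.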

Additional observations from a re-analysis of the deposited data

Results flagged for a closer look

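The chromosome middles, between 0.3 and 0.7 of the length, were outside the rule that chose the regions but held unshared regions near shared summits too. There, 66 of 726 unshared replicate 1 regions (9.09%, Wilson interval 7.21 to 11.4%) lay within 10000 bp of a shared summit, beside 1.45% of the bases, a ratio of 6.28. Their median fold enrichment was 4.58, and 4 of the 66 had high local background. No input list was used as a control for this count. The scaffolds outside the 20 chromosomes held 20 unshared regions, none of them that near to a shared summit.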

How the results depend on the processing

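Over 49 alternative values of 5 results, 14 moved and 35 did not, judged for counts by a limit of 1.5 times and otherwise by the interval of the value reported. The number of close unshared regions was 353 with a limit of 5000 bp and 872 with 20000 bp, and the other 8 of 10 alternatives gave 383 to 629. The ratio to the share of bases stayed above 1 in all 13 alternatives but moved in 9. It was 3.08 within 5000 bp, 1.93 within 20000 bp, 2.22 with q below 1e-05, 2.13 without regions that had a replicate 2 region within 500 bp, 2.10 with outer parts of 0.2 and 0.8, 3.28 on whole chromosomes, and 1.66 and 1.57 with bases within 500 and 100 kb. It was 1.98 for regions over 2000 bp from the shared summit, an alternative chosen after seeing the data. Without high-background regions, also chosen after seeing the data, the ratio was 2.53 with 544 regions. The ratio of median strength to farther regions was 0.942 when strength was measured by −log10 q, and 12 of 13 alternatives stayed within the error. The median distance was 3958 bp with q below 1e-05 and 4080 bp without regions that had a replicate 2 region within 500 bp. The replicate 2 share lay between 4.00 and 12% in its 6 alternatives, and was 11.1% beside 4.91% of bases with q below 1e-05 (4 of 36 regions) and 12% beside 10.5% of bases within 20000 bp. The cause of these differences was not tested. No paired analysis was possible because each result comes from 1 comparison of 2 lists without a test. Leaving out a replicate was not run because it leaves no overlap to define the regions. The fewest fragments at a called region were 14 in replicate 1 and 12 in replicate 2, and an effect of depth on the unshared calls was not tested.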
